A study of Mus musculus with 201 samples.

Results

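The IER and BTG early response genes are a small set of genes whose transcripts appear within minutes to hours of a stimulus. The 6 genes described here, *Ier2*, *Ier3*, *Ier5*, *Ier5l*, *Btg1* and *Btg2*, were chosen by name, out of 42609 gene symbols that occur in all 3 deposited expression tables, and all 6 are present in each table. They were followed through 5 groups of single dentate granule cells (DGCs) or DGC nuclei, 201 samples in total. DGCs are the principal neurons of the dentate gyrus, marked by the transcription factor PROX1.

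Whole cells came from Prox1-GFP mice, which carry green fluorescent protein under the *Prox1* promoter, and were freed with papain and sorted for GFP. PTZ-treated mice had received 50 mg per kg of pentylenetetrazole, a GABA(A) receptor antagonist that causes seizures, and were killed 1 h later, as were the saline-treated mice. Nuclei came from female C57BL/6 mice of 8 weeks. NE nuclei were taken after a mouse had explored an unfamiliar environment (NE) for 15 min and then spent 1 h in its home cage, and were sorted as PROX1+ and FOS+ or as PROX1+ and FOS−, so both sort groups share an animal. HC nuclei came from a mouse left in its home cage and are labelled as NEUN+ and PROX1+. They were captured on a Fluidigm C1 chip, where staining was scored by imaging. After the limits on depth and gene number, 40 of 48 FOS+ nuclei, 41 of 48 FOS− nuclei, 30 of 35 PTZ-treated cells and 38 of 47 saline-treated cells were kept. All 23 HC nuclei were kept, of which 22 passed the limits.

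Each sample is a single cell, and the labels tie no cell to an animal. The study describes 1 pool of 2 mice per whole-cell treatment, where the series design speaks of a single mouse, together with 1 NE mouse and 1 HC mouse. Each group was therefore 1 biological sample, and differences between groups carry no test. A gene was called detected in a cell when its TPM value, the transcript level scaled for gene length and for the cell's total, was above 1. Shares of cells are given with exact (Clopper-Pearson) 95% intervals, which cover counting error only and say nothing of the spread between mice. Where no cell of a group held a gene, the largest share allowed is given as 3 cells of the group, a simpler limit that lies somewhat under the exact upper bound drawn in the plot of detection shares. Differences were read against fixed size rules: a detection share that differed by at least 20 points, and a mean TPM that differed at least 2-fold.

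The 2 families named here have different modes of action. IER2, IER5 and IER5L share a conserved amino-terminal domain and shuttle to the nucleus. IER5 brings the phosphatase PP2A to substrates such as the heat shock factor HSF1. IER3 is an unrelated small protein, induced by NF-kappaB and p53, that acts in survival signalling. BTG1 and BTG2 are close relatives of the antiproliferative BTG/TOB family. They have no enzyme activity of their own and tie the CCR4-NOT deadenylase complex to messenger RNAs, which shortens poly(A) tails, and they bind the arginine methyltransferase PRMT1. *Btg2*, also known as Tis21 or PC3, is a p53 target and is known in the brain from dividing neural progenitors, and in mature neurons as an activity-induced transcript.

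In the GENCODE annotation of GRCm38, *Btg2* (chr1:134075170-134079120, minus strand) and *Ier5* (chr1:155096361-155099636, minus strand) lie on the same chromosome. *Ier5l* is at chr2:30471537-30474219 (minus strand), *Ier2* at chr8:84661331-84662852 (minus strand), *Btg1* at chr10:96617006-96622809 (plus strand) and *Ier3* at chr17:35821684-35822923 (plus strand). All 6 are protein-coding and no annotated gene overlaps any of them. *Ier2*, *Ier5* and *Ier5l* consist of 1 exon, so spliced and unspliced transcripts cannot be told apart for them, whereas *Ier3*, *Btg1* and *Btg2* have 2 exons. The annotation also holds near-copies of *Btg1* (*Btg1-ps1* and *Btg1-ps2*), between which the authors' program could have divided reads, so the *Btg1* values are uncertain to that extent. Counts that were not whole numbers also occurred in FOS+ nuclei for *Btg2* (such as 3466.3) and *Ier5* (such as 478.2). Their values may share this limit.

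The RefSeq promoter table for GRCm38.p6 held 5 of the 6 genes. The 250 bases before the start are shown for *Btg2* (chr1:134079156-134079405, minus strand) and *Ier5* (chr1:155099637-155099886, minus strand), the members whose detection differed most between FOS+ and FOS− nuclei, and for *Btg1* (chr10:96616751-96617000, plus strand), the close relative of *Btg2* whose detection did not pass the rule there. Each reads 5′ to 3′ on the gene's strand. Capitals mark matches on either strand to the cyclic AMP response element TGACGTCA, its half-site TGACG, the AP-1 motif TGANTCA, the TATA motif TATAAA or the CArG box.
Btg2: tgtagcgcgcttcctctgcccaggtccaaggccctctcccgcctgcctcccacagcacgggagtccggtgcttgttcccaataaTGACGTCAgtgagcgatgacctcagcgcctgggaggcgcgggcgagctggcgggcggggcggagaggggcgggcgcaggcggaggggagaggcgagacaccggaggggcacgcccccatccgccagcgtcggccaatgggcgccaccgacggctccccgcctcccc
Ier5: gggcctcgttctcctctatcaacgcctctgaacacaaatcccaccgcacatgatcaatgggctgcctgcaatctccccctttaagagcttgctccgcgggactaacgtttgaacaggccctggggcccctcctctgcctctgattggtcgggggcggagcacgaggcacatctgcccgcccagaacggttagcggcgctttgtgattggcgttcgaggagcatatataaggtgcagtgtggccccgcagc
Btg1: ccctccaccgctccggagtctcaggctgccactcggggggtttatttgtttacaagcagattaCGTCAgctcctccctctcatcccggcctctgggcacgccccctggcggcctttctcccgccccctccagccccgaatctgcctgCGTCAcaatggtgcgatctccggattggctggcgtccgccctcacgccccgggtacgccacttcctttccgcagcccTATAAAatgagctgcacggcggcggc
The *Btg2* promoter held the full element TGACGTCA, starting at position −166 from the start, and this motif occurs in 1.79% of the 32851 promoters in the table. The half-site TGACG, which lies inside the full element in *Btg2*, also occurred at positions −187 and −103 of *Btg1*, and is found in 20.8% of promoters. TATAAA was found at position −26 of *Btg1* and in 13.6% of promoters. Neither TGANTCA, found in 7.81% of promoters, nor the CArG box, found in 1.63%, occurred in any of the 5 windows, each of which runs from 250 bases before to 50 after the start. None of the 5 motifs, as spelled here, was in the windows of *Ier3*, *Ier5* and *Ier5l*. Variant spellings, such as other forms of the TATA motif, were not searched. These matches describe letters and are not evidence of binding.

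The totals of expected counts in kept samples ran from 80096 to 1035170 in FOS+ nuclei, 63775 to 1060516 in FOS− nuclei, 107647 to 278779 in HC nuclei, 67212 to 5129240 in PTZ-treated cells and 401331 to 2696043 in saline-treated cells. *Prox1* itself was detected in every whole cell, in 33 of 40 FOS+ and 34 of 41 FOS− nuclei and in 14 of 23 HC nuclei. *Fos* transcripts were detected in 12 of 40 FOS+ nuclei and 3 of 41 FOS− nuclei. In whole cells *Fos* was detected in 26 of 30 PTZ-treated and 30 of 38 saline-treated cells. The 3 tables differ in read type and platform and were normalized separately, so levels across tables are set side by side and were not compared. A few samples stood apart. A FOS+ nucleus held 3 of 5 microglia markers at a summed 3436 TPM, another FOS+ nucleus had only 1373 genes above 1 TPM and none of the 6 members, and a PTZ-treated cell held 3 of 5 astrocyte markers at a summed 3830 TPM. The interneuron gene *Gad1* was detected in 21 of 30 PTZ-treated and 33 of 38 saline-treated cells, while *Gad2*, *Slc32a1*, *Sst* and *Pvalb* were detected in no whole cell. In addition, 4 PTZ-treated cells had more than 10000 genes. In single HC nuclei the astrocyte marker *Slc1a3* reached 2762 TPM and the interneuron marker *Gad1* 3231 TPM, each being 1 gene of its list. *Gja1* was detected in 1 HC nucleus and *Gad2* in 10. *Gfap*, *Aqp4*, *Aldh1l1*, *Slc32a1*, *Sst* and *Pvalb* were detected in none, and no HC nucleus held 2 astrocyte markers. The part of these genes in the HC values was not tested. Between the NE sort groups, the 5 interneuron markers summed to 0 to 1360 TPM in FOS+ nuclei (median 18.7). In FOS− nuclei the sum was 0 to 1313 TPM (median 1). *Gad1* alone reached 1360 TPM in FOS+ and 1311 TPM in FOS− nuclei. *Pvalb* was at 0 in both groups and *Slc32a1* at 0 in FOS+ nuclei. The part of these markers in the differences below was not tested. Values without the 3 samples named first, or without those 4 cells, are given where they bear on a difference.

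*Btg2* had the highest mean TPM of the 6 genes in every group except HC nuclei, where that of *Btg1* was higher. *Btg2* was detected in 22 of 40 FOS+ nuclei (55%, interval 38.5 to 70.7%), against 12 of 41 FOS− nuclei (29.3%, 16.1 to 45.5%) and 4 of 23 HC nuclei (17.4%, 4.95 to 38.8%). In whole cells it was detected in 33 of 38 saline-treated cells (86.8%, 71.9 to 95.6%) and 21 of 30 PTZ-treated cells (70%, 50.6 to 85.3%). Within a table, saline-treated cells thus lay above PTZ-treated cells and FOS+ nuclei above FOS− nuclei, and in both pairs the intervals overlapped. The lowest *Btg2* level was 0 TPM in each of the 5 groups. The median and highest levels were 6.21 and 2731 TPM in FOS+ nuclei, 0 and 301.5 TPM in FOS− nuclei, 0 and 1217 TPM in HC nuclei, 37.4 and 3759 TPM in PTZ-treated cells and 217.6 and 4236 TPM in saline-treated cells.

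*Btg1* was spread more evenly. It was detected in 18 of 40 FOS+ nuclei (45%, 29.3 to 61.5%), 18 of 41 FOS− nuclei (43.9%, 28.5 to 60.3%), 7 of 23 HC nuclei (30.4%, 13.2 to 52.9%), 17 of 30 PTZ-treated cells (56.7%, 37.4 to 74.5%) and 27 of 38 saline-treated cells (71.1%, 54.1 to 84.6%). Its highest level was 267.5 TPM in FOS+ nuclei, 250.5 TPM in FOS− nuclei, 1180 TPM in HC nuclei, 86.2 TPM in PTZ-treated cells and 450.5 TPM in saline-treated cells. The median was 0 in the nuclei, 12.5 TPM in PTZ-treated cells and 25.95 TPM in saline-treated cells. Among HC nuclei, the 7 that held *Btg1* and the 4 that held *Btg2* were different nuclei. With so few of the 23 nuclei holding either gene, a lack of overlap can arise without any link between them, and this was not tested.

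*Ier5* was detected in 13 of 40 FOS+ nuclei (32.5%, 18.6 to 49.1%) and 3 of 41 FOS− nuclei (7.32%, 1.54 to 19.9%). No HC nucleus held it, and 0 of 23 allows a share of up to 13.04%. In whole cells it was detected in 7 of 30 PTZ-treated cells (23.3%, 9.93 to 42.3%) and 4 of 38 saline-treated cells (10.5%, 2.94 to 24.8%). *Ier2* had another distribution. It was detected in 10 of 30 PTZ-treated cells (33.3%, 17.3 to 52.8%) and 11 of 38 saline-treated cells (28.9%, 15.4 to 45.9%), but in only 2 of 40 FOS+ nuclei (5%, 0.611 to 16.9%). It was in none of the FOS− and HC nuclei, where 0 of 41 allows up to 7.32% and 0 of 23 up to 13.04%.

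*Ier5l* was sparse. It was detected in 3 of 40 FOS+ nuclei (7.5%, 1.57 to 20.4%), 0 of 41 FOS− nuclei (up to 7.32%), 2 of 23 HC nuclei (8.70%, 1.07 to 28.04%), 7 of 30 PTZ-treated cells (23.3%, 9.93 to 42.3%) and 7 of 38 saline-treated cells (18.4%, 7.74 to 34.3%). Its detected levels were low in whole cells, with a median of 9.76 TPM in PTZ-treated and 5.58 TPM in saline-treated cells. The median of the 3 FOS+ nuclei with it was 41.5 TPM, and the 2 HC nuclei had 10.55 and 230.4 TPM. *Ier3* was found in a single sample of the series, a PTZ-treated cell with 238 TPM from 60 counts. It was at 0 in all nuclei and in all saline-treated cells, where 0 of 38 allows a share of up to 7.89%.

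**Figure D1:**
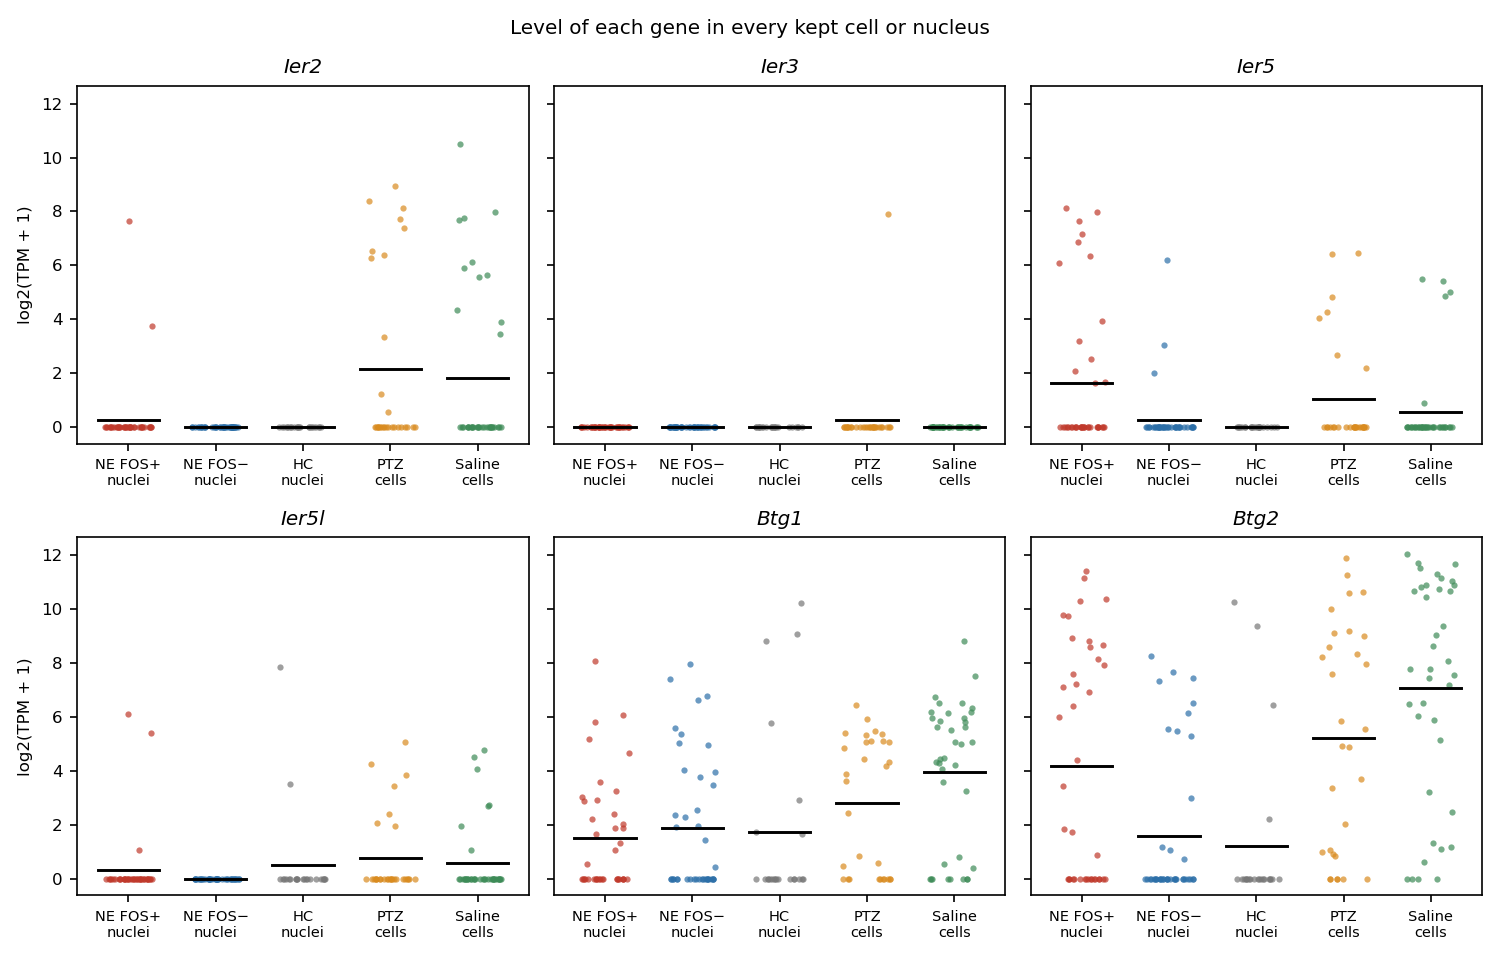
Level of each of the 6 genes as log2(TPM + 1) in every kept cell or nucleus (points), by group, with the group mean as a black line. *Btg2* reaches the highest levels, its FOS+ mean of 4.18 lies above the FOS− mean of 1.60, and *Ier3* is above 0 in 1 PTZ-treated cell.

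**Figure D2:**
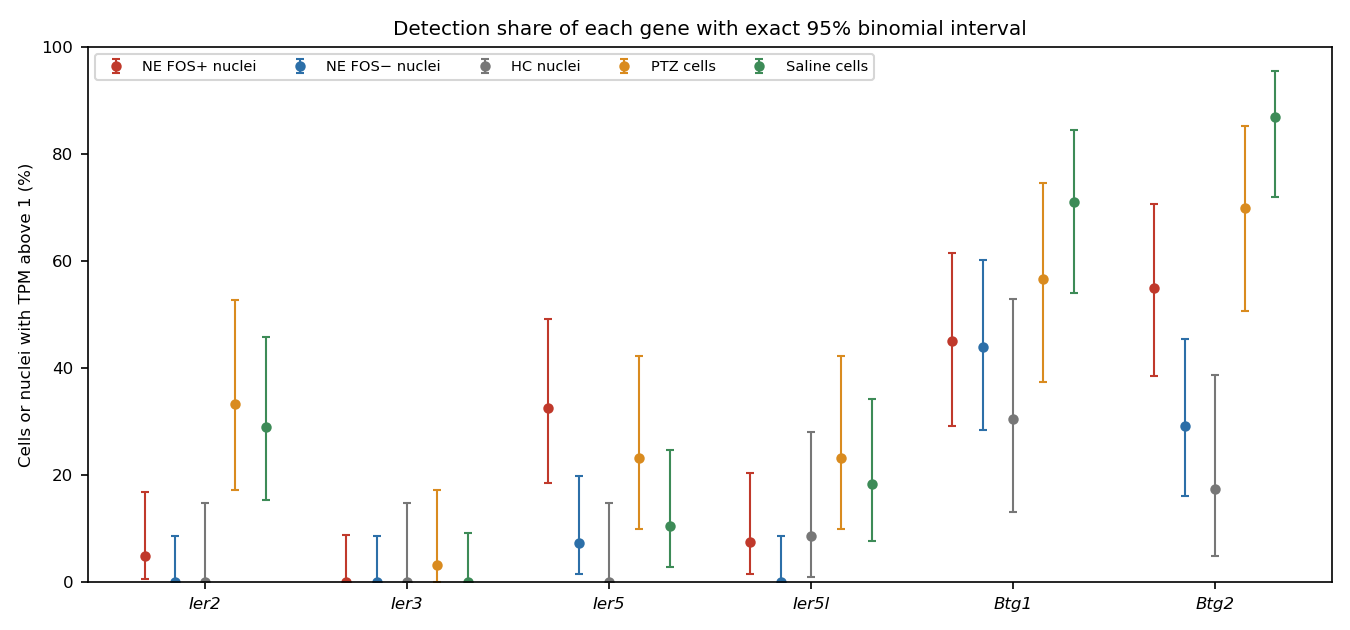
Percentage of kept cells or nuclei in which each gene had a TPM above 1 (points), with exact 95% binomial intervals (bars), by group. *Ier5* is at 32.5% of FOS+ and 7.32% of FOS− nuclei, and *Btg1* at 45% and 43.9%.

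The comparison of FOS+ with FOS− nuclei asked how the 6 genes differ between nuclei of 1 animal that did and did not hold FOS protein after NE. Before its own comparison, the study set aside some FOS+ nuclei whose expression clustered with FOS− nuclei. The labels do not mark those nuclei, so they were not removed as such here. The study's criterion on spike-in RNA was not applied either, so the nuclei compared are not the same set. *Btg2* and *Ier5* were detected more often in FOS+ nuclei and at a higher mean level, *Btg1* was detected about as often in both, and the other 3 genes were rare or absent. Only *Ier5*, *Btg1* and *Btg2* had a count in at least 5 of the 81 nuclei, the filter used to describe all genes. Of 16411 genes that passed it, 4.3% were detected in a share at least 20 points higher in FOS+ nuclei, as were *Btg2* and *Ier5*, and 3.69% in a share at least 20 points lower, as was none of the members. A mean TPM at least 2-fold higher was found for 16.4% of genes and for *Btg2* and *Ier5*, and one at least 2-fold lower for 27.6% of genes and for no member. The median difference of shares was 6.25 points over the 6 members and −0.793 points over all genes that passed.

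For *Btg2*, 16 of 40 FOS+ nuclei and 4 of 41 FOS− nuclei exceeded 100 TPM, and 4 FOS+ nuclei but no FOS− nucleus exceeded 1000 TPM. The levels of the nuclei overlapped, since 18 FOS+ nuclei were below detection. The shares differed by 25.7 points (interval 2.55 to 46.2) and the mean TPM was 309 in FOS+ and 27.7 in FOS− nuclei, an 11.1-fold difference. On the log2(TPM + 1) scale the mean was 4.18 ± 4.29 (SD over 40 nuclei) in FOS+ and 1.60 ± 2.79 (SD over 41 nuclei) in FOS− nuclei, so the difference of 2.58 was smaller than the spread among nuclei of a group. FOS+ nuclei held 9582 *Btg2* counts (exact Poisson interval 9391 to 9776), or 662.8 CPM (counts scaled to a common total but not for gene length), and FOS− nuclei held 831 (775.5 to 889.5), or 59.5 CPM. Of the FOS+ counts, 36.2% came from 1 nucleus. Without the highest nucleus of each group the fold was 11.8.

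For *Ier5*, the 13 FOS+ nuclei with the transcript ran from 2.12 to 279.3 TPM with a median of 67.7 TPM, and 5 of them exceeded 100 TPM. The 3 FOS− nuclei had 3.03, 7.20 and 71.8 TPM. The highest FOS− nucleus therefore lay above the median of the FOS+ nuclei in which it was detected. The shares differed by 25.2 points (6.397 to 42.8), and mean TPM was 29.2 in FOS+ and 2.00 in FOS− nuclei, a 14.6-fold difference (26.3-fold by pooled CPM). Of the 45 FOS− counts, 95.6% came from 1 nucleus, and without the highest nucleus of each group the fold was 89.3. With detection set at TPM above 5, the difference of shares was 17.6 points and no longer past the rule.

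*Btg1*, the relative of *Btg2*, passed neither rule. Its shares differed by 1.10 points, with an interval from −21.6 to 23.7. Its mean TPM was 12.7 in FOS+ and 20.7 in FOS− nuclei, a ratio of 0.616, while the summed counts were 935 (876 to 996.9) and 944 (884.7 to 1006). *Ier2* was detected in FOS+ nuclei at 12.4 and 200.9 TPM, 70 counts in all, and *Ier5l* at 1.12, 41.5 and 68.2 TPM, 37 counts in all. Neither had a count in FOS− nuclei. Against a floor of 3 counts over the whole FOS− group, pooled CPM were 22.5-fold higher for *Ier2* and 11.9-fold higher for *Ier5l*. A single nucleus gave 84.3% of the *Ier2* counts, and a single nucleus gave 70.3% of the *Ier5l* counts. The shares differed by 5 points (−4.66 to 16.9) for *Ier2* and 7.5 points (−2.95 to 20.4) for *Ier5l*, and both intervals include 0. *Ier3* was at 0 in both groups.

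**Figure D3:**
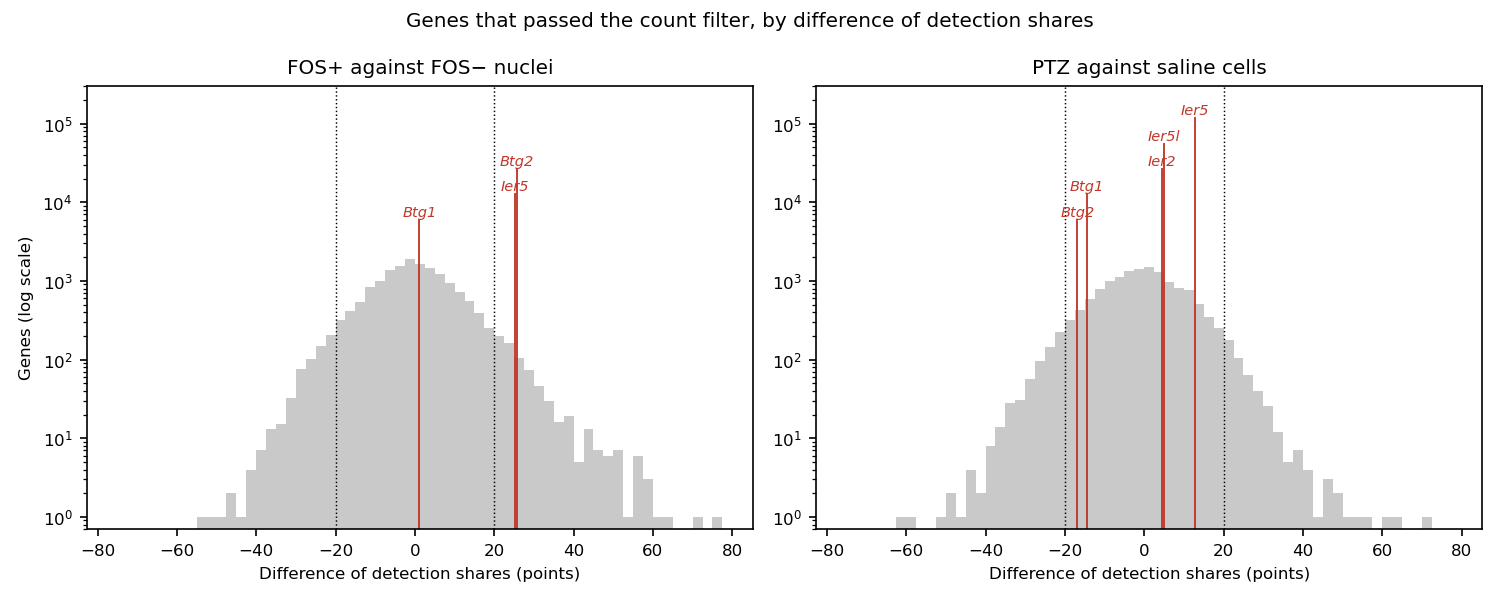
Number of genes (log scale) by the difference of detection shares in points, for FOS+ minus FOS− nuclei and for PTZ minus saline cells, over the genes that passed the count filter. Red lines place the members that passed and dotted lines mark 20 points. *Btg2* and *Ier5* lie beyond the right dotted line in the nuclei, and no member lies beyond either line in the whole cells.

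The NE nuclei had been amplified under 4 conditions that crossed 1 or 10 µM template-switching oligonucleotide (TSO) with ERCC spike-in RNA diluted 1:200 or 1:2000. Both genes were detected in a higher share of FOS+ nuclei in all 4. For *Btg2* the shares in FOS+ and FOS− nuclei were 36.4% of 11 and 10% of 10 (10 µM, 1:200), 72.7% of 11 and 54.5% of 11 (10 µM, 1:2000), 40% of 10 and 20% of 10 (1 µM, 1:200) and 75% of 8 and 30% of 10 (1 µM, 1:2000). *Btg2* detection also differed between conditions, with higher shares at 1:2000 than at 1:200 in both sort groups. For *Ier5* the differences were 7.27, 45.5, 10 and 37.5 points in the same order. At 1:200 the *Ier5* counts were nearly equal, with 3 of 11 FOS+ and 2 of 10 FOS− nuclei (10 µM) and 2 of 10 and 1 of 10 (1 µM). At 1:2000 they were 5 of 11 and 0 of 11 (10 µM) and 3 of 8 and 0 of 10 (1 µM). *Btg1* differed by −4.55, 27.3, 10 and −35 points, with no common direction. Among all genes that passed the filter, 2.58% were at least 20 points higher overall and higher in all 4 conditions.

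**Figure D4:**
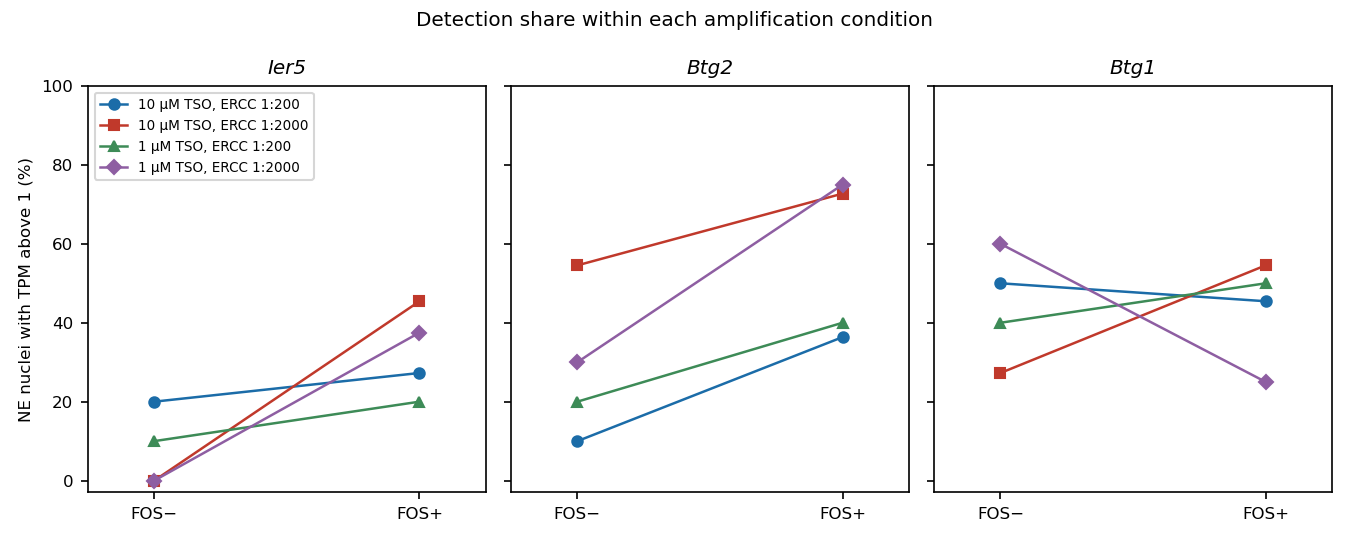
Percentage of FOS− and FOS+ nuclei with *Ier5*, *Btg2* or *Btg1* above 1 TPM within each of the 4 amplification conditions (lines, 8 to 11 nuclei per point). All 4 lines rise from FOS− to FOS+ for *Ier5* and *Btg2*, and those for *Btg1* cross.

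Depth was higher in FOS+ nuclei, with a median total of 269061 against 214421. After each nucleus had been thinned to 50000 counts, with detection at 1 count, *Btg2* was found in 19 of 40 FOS+ nuclei (47.5%) and 10 of 41 FOS− nuclei (24.4%), and *Ier5* in 10 (25%) and 2 (4.88%). *Btg1* was then found in 10 of 40 FOS+ (25%) and 16 of 41 FOS− nuclei (39.02%). The differences of shares without the FOS+ nucleus that held microglia markers and the one with fewest genes were 25.99 points for *Btg2* and 24.3 points for *Ier5*.

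The comparison of PTZ-treated with saline-treated whole cells asked how the 6 genes differ between the treatments. The study reported immediate early gene expression in whole cells of both treatments and attributed it to papain dissociation. Saline-treated cells are therefore no unstimulated baseline, and the part of dissociation in the values below was not tested. None of the 6 genes passed the 20-point rule, *Ier5* had a higher mean level in PTZ-treated cells, and *Btg1* and *Btg2* had lower ones. The cells of each treatment carry a title suffix of their own, whose meaning the labels do not give, and whatever it marks cannot be told apart from treatment. The members that passed the count filter were *Ier2*, *Ier5*, *Ier5l*, *Btg1* and *Btg2*. Of 14492 genes that passed, 3.12% were detected in a share at least 20 points higher after PTZ and 4.35% in a share at least 20 points lower. A mean TPM at least 2-fold higher was found for 14.7% of genes and 1 of the 5 members, and one at least 2-fold lower for 16.7% of genes and 2 of the 5. The median difference of shares was 3.86 points over the 6 members and −0.702 points over all genes that passed.

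*Btg2* exceeded 1000 TPM in 14 of 38 saline-treated cells and 5 of 30 PTZ-treated cells, and the groups overlapped over nearly their whole range. Its mean TPM was 940 in saline-treated and 455 in PTZ-treated cells, a PTZ to saline ratio of 0.484, and the shares differed by −16.8 points (−38.1 to 4.51). The mean of log2(TPM + 1) was 5.22 ± 4.17 (SD over 30 cells) after PTZ and 7.06 ± 4.14 (SD over 38 cells) after saline. The ratio depended on how cells were weighted. Pooled CPM were 1140 (exact Poisson interval 1130 to 1151) after PTZ and 1285 (1274 to 1296) after saline, a ratio of 0.887. These intervals cover read counting alone and not the spread among cells, and 20.5% of the PTZ counts came from a single cell. With mean CPM the ratio was 0.536, and with all 82 deposited cells included it was 0.617.

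*Btg1* had a mean TPM of 18.6 after PTZ and 47.9 after saline, a ratio of 0.388 (0.546 on pooled CPM), and its shares differed by −14.4 points (−37.9 to 10.3). No PTZ-treated cell and 3 saline-treated cells exceeded 100 TPM. *Ier5* had a mean TPM of 8.09 after PTZ and 3.87 after saline, 2.09-fold higher, with shares that differed by 12.8 points (−6.77 to 33.2), or by 4.86 points without the 4 cells of more than 10000 genes. Its 7 PTZ-treated cells ran from 3.63 to 88.1 TPM and its 4 saline-treated cells from 28.3 to 44.1 TPM. The second highest of the PTZ values, 84.8 TPM, was in the cell with astrocyte markers, and without that cell the fold was 1.41. The same cell held the highest *Ier2* level after PTZ, 496 TPM, together with 301 TPM of *Btg2* and 32.7 TPM of *Btg1*.

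*Ier2* shares differed by 4.39 points (−19.0 to 28.1), and by −5.87 points without the 4 cells of more than 10000 genes. Its detected levels ran from 1.37 to 496 TPM after PTZ and from 9.92 to 1442 TPM after saline, so the groups overlapped. Its ratio of PTZ to saline turned with the weighting, at 0.930 by mean TPM, 1.05 by mean CPM and 2.94 by pooled CPM. The 4 PTZ-treated cells with more than 10000 genes, whose totals ran from 2150060 to 5129240, all held *Ier2*, at 76.1 to 336 TPM, and without them the pooled ratio was 1.92 and the ratio of mean TPM 0.636. The levels of *Ier2* after PTZ correlated with the number of genes per cell (r = 0.50 over 30 cells), and after saline they did not run the same way (r = −0.19 over 38 cells). Without those 4 cells the shares of *Btg1* and *Btg2* differed by −21.1 and −21.5 points, past the rule. *Ier5l* differed by 4.91 points (−15.9 to 26.7), or by −3.04 points without them, with mean TPM of 2.81 and 2.06. *Ier3* counts in the single PTZ-treated cell came to a pooled level 19.8-fold higher than the floor of 3 counts in saline-treated cells. Its shares differed by 3.33 points (−6.47 to 17.2).

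At least 2 of the 6 genes were detected in 19 of 40 FOS+ nuclei (47.5%, 31.5 to 63.9%). The same held for 6 of 41 FOS− nuclei (14.6%, 5.57 to 29.2%) and 2 of 23 HC nuclei (8.70%, 1.07 to 28.04%). In whole cells at least 2 were detected in 20 of 30 PTZ-treated (66.7%, 47.2 to 82.7%) and 27 of 38 saline-treated cells (71.1%, 54.1 to 84.6%). Such counts depend on the detection shares of the single genes, and co-occurrence beyond those shares was not tested. At least 3 occurred in 6 FOS+ nuclei and no FOS− or HC nucleus, in 8 PTZ-treated and in 16 saline-treated cells. The only samples with 5 of them were 2 PTZ-treated cells, both among the 4 with more than 10000 genes. Of the 13 FOS+ nuclei with *Ier5*, 8 also held *Btg2*, with a correlation of levels of 0.06 over the 40 nuclei. *Btg1* and *Btg2* were together in 9 FOS+ nuclei, with a correlation of log2(TPM + 1) of −0.02 over 40 nuclei. In saline-treated cells both were present in 24 of 38, with r = 0.50, and there *Btg1* also rose with the number of genes per cell (r = 0.53).

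**Figure D5:**
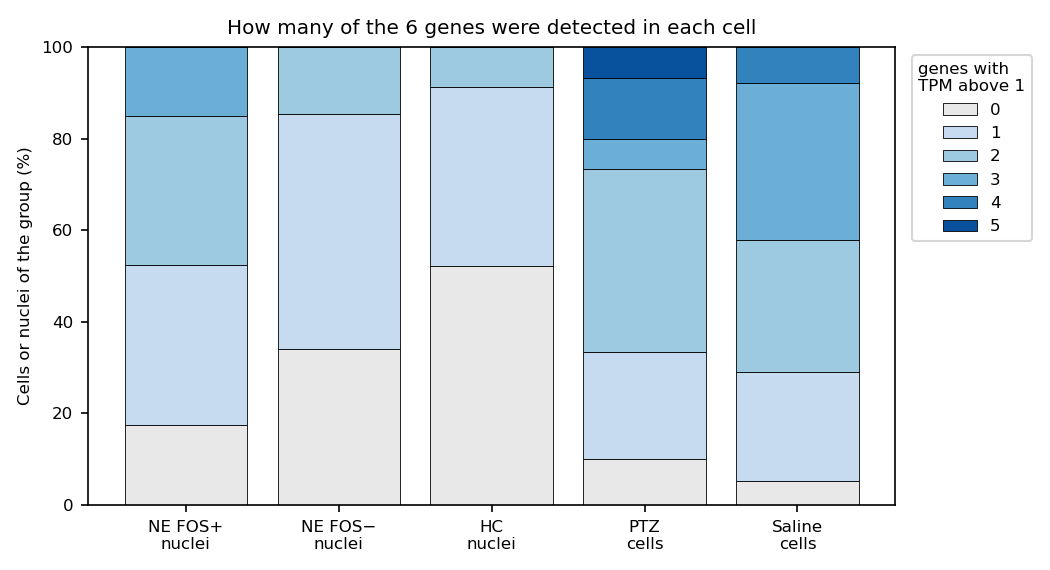
Stacked percentage of kept cells or nuclei of each group by how many of the 6 genes were above 1 TPM. FOS− and HC nuclei stop at 2 genes, FOS+ nuclei reach 3, saline-treated cells 4 and PTZ-treated cells 5.

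The genes with levels most like those of each member were sought among genes detected in at least 25% of the cells, as the 3 highest correlations of log2(TPM + 1). In the 40 FOS+ nuclei (9215 genes), those of *Btg2* were *Fbxo33* (r = 0.64), which encodes an F-box protein, and the early transcription factors *Nr4a1* (r = 0.62) and *Egr1* (r = 0.61). In the 68 whole cells of both treatments (9477 genes) they were the early transcription factors *Junb* (r = 0.78), *Fosb* (r = 0.75) and *Nr4a1* (r = 0.75). *Fos* ranked 6 in the FOS+ nuclei (r = 0.56) and 5 in the whole cells (r = 0.73). *Ier5* in FOS+ nuclei was nearest to *Rpl31*, *Prkcb* and *2210018M11Rik* (r = 0.64 to 0.60). *Fos* ranked 2303 (r = 0.14), *Egr1* 2169 (r = 0.15) and *Arc* 442 (r = 0.31). All 13 FOS+ nuclei with *Ier5* also held *Arc*, which was detected in 31 of the 40. *Btg1* was nearest to *St6galnac4*, *Entpd1* and *Gpc4* in FOS+ nuclei (r = 0.66 to 0.61) and to *Bcl7b*, *Bhlhe41* and *Gm13889* in whole cells (r = 0.56 to 0.55). *Ier2* in whole cells was nearest to *Zfp57*, *Jup* and *Dcx* (r = 0.58 to 0.57), with *Fos* at rank 5 (r = 0.53). The FOS+ nuclei share a mouse and library batch. The whole cells join 2 treatments, each a separate biological sample, so a difference between treatments can enter those correlations. Mean TPM after PTZ and saline was 704 and 1593 for *Junb*, 107 and 302 for *Fosb* and 327 and 624 for *Nr4a1*. That of *Btg2* was also lower after PTZ. The part of treatment was not tested. Cells also differed in depth, and these correlations are descriptions of sparse counts.

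Among other activity-induced early genes, 18 of 30 listed genes (26 passed the count filter) were detected in a share at least 20 points higher in FOS+ than FOS− nuclei, and none at least 20 points lower, with a median difference of 28.8 points over those that passed. The largest differences were in *Arc*, a synaptic regulator (31 of 40 and 1 of 41 nuclei), the nuclear receptor *Nr4a2* (31 and 9), the AP-1 subunit *Fosl2* (27 and 5), the nuclear receptor *Nr4a3* (26 and 4), the prostaglandin synthase *Ptgs2* (24 and 2) and the neurotrophin *Bdnf* (35 and 16). The differences of *Btg2* and *Ier5* were thus below the median of that list. In whole cells, of 29 early genes that passed the filter, *Dusp1*, a MAP kinase phosphatase, was the 1 gene past the rule upward (16 of 30 PTZ-treated and 12 of 38 saline-treated cells). The transcription factor *Egr4* (9 and 21) and the synaptic scaffold gene *Homer1* (8 and 20) were past it downward. The median difference there was −1.58 points.

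Of the other BTG/TOB genes, *Btg3* was detected in 12 of 40 FOS+ and 4 of 41 FOS− nuclei, a difference of 20.2 points, with mean TPM of 60.6 and 6.98. *Tob1* (10 and 5 nuclei) and *Tob2* (4 and 4) did not pass the rule, and *Btg4* was at 0. None of the 4 passed it in whole cells. Among 12 genes of the CCR4-NOT complex and its poly(A)-binding partner, all of which passed the count filter, *Cnot11* was detected more often in FOS+ nuclei (26 of 40 against 16 of 41, mean TPM 29.4 and 2.55), whereas *Cnot2* (14 and 26) and *Cnot3* (17 and 26) were detected less often, and the median difference was −1.04 points. *Cnot7*, which encodes the deadenylase that BTG proteins bind, was detected in 25 FOS+ and 27 FOS− nuclei. In whole cells *Cnot2* (20 of 30 PTZ-treated and 35 of 38 saline-treated cells) and *Cnot7* (18 and 32) were past the rule downward after PTZ, and none upward, with a median of −13.3 points. Of the PP2A subunits and *Hsf1*, 8 of 9 passed the filter in nuclei, and the scaffold subunit *Ppp2r1b* was the 1 gene past the rule (12 FOS+ and 4 FOS− nuclei), although its mean TPM was 25.8 in FOS+ and 32.8 in FOS− nuclei. The list's median difference was 11.1 points. In whole cells the regulatory subunit *Ppp2r2c* was past it downward (20 of 30 and 33 of 38 cells), with a median of −7.72 points over 9 genes. *Prmt1* differed by 6.22 points in nuclei and −3.51 points in whole cells and did not pass.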

How the data were processed

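Single whole cells and nuclei were profiled by RNA sequencing. The authors aligned trimmed reads (paired-end 100 bp for whole cells and HC nuclei, single-end 50 bp for NE nuclei) with RSEM to the mouse genome and deposited, per table, expected counts, which are not normalized, and TPM values, which the authors scaled within each cell. The submitters' processing notes name Bowtie 1.0.0, RSEM and mm10. Samples were grouped by their labels. Here a cell stayed in if its expected counts summed to more than 50000 and if it had more genes above 1 TPM than a limit set 2 SD under its table's mean. All HC nuclei stayed in. The limit on genes is below 0 in the whole-cell table and so removed none there.

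Detection shares were computed with Clopper-Pearson intervals, and the interval of a difference was built from both. Expected counts were rounded to whole numbers for sums, thinning and the filter of a count in at least 5 cells. Pseudocounts of 1 were added before log2. No p-value was computed, since each group is 1 biological sample. Intervals cover counting error only. Those of summed counts treat reads as independent, although reads carried no molecular identifiers, and leave out the spread among cells. A count of 3 corresponds to between 0.585 and 47.04 CPM in the NE nuclei and whole cells kept. No doublet caller was run, since each sample was 1 sorted well or chamber. No columns were identical. Alternatives, among them edgeR 4.0.16 TMMwsp library sizes under R 4.3.3, are given in the closing section. The scripts ran in Python 3.11.15 with scipy 1.17.1 and were tested on simulated data. The members, lists and tests were chosen with earlier results of these data known. Genes named besides the members are those past the 20-point rule in lists of partners and early genes, at most 6 per list, and the 3 most correlated genes per member detected in at least 25% of cells. *Fos*, *Tob1*, *Tob2*, *Btg4*, *Cnot7* in nuclei, *Prmt1* and the marker genes were named as checks or as counts of 5 or fewer.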

Additional observations from a re-analysis of the deposited data

How the results depend on the processing

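Across 264 recomputed values no called difference changed sign, 241 stayed near the reported value and 23 moved. Near meant within the interval or SD of a member's value, or within 1.5 times for a fold or a count. Some values could not move, such as the shares of *Ier2*, *Ier3* and *Ier5* in HC nuclei, which had 0 counts. The intervals were wide, so *Ier5* at 7.27 points within 10 µM TSO and 1:200 was near its 25.2 points. The tally is therefore no measure of stability. In FOS+ against FOS− nuclei, the number of members at least 20 points higher was 2 and fell to 1 with detection at TPM above 5. The number at least 2-fold higher was 2 and became 4 with no filter on low genes, which adds *Ier2* and *Ier5l*, both at 0 in FOS− nuclei. The number at least 2-fold lower was 0 and became 1 (*Btg1*, ratio 0.415) without the highest cell of each group. In PTZ-treated against saline-treated cells, the number at least 20 points lower was 0, 1 when detection required a rounded count of 5 or more (*Btg2*, −22.3 points) and 2 without cells of more than 10000 genes, a setting chosen after seeing the data. The number at least 2-fold higher was 1, and was 0 without the cells that stand apart, also chosen after seeing the data, 0 without the highest cell of each group, 2 by pooled CPM and 2 with no filter. The number at least 2-fold lower was 2, and was 1 with all cells of the table, 1 by mean CPM, 1 by TMMwsp library sizes and 0 by pooled CPM. The causes were not tested.

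No paired analysis was possible because the replicate numbers only name wells and no test was run. In FOS− nuclei, where *Ier2*, *Ier3* and *Ier5l* were at 0, the 41 nuclei allow a share of up to 7.32%. With 1 mouse or 1 pool per group, differences between groups have no spread between animals beside them.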
